A study of Mus musculus with 18 samples.

Results

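A set of 9 genes that mark macrophages was followed: the lysozyme genes *Lyz1* and *Lyz2*, the transcription factor genes *Spi1*, *Cebpa* and *Cebpb*, and the surface receptor genes *Csf1r*, *Adgre1*, *Itgam* and *Fcgr1*. They were taken by gene name from a table of 31053 genes measured by bulk RNA-Seq in bone marrow-derived macrophages. All 9 members were found, and all 9 were among the 12290 genes that passed the filter on low counts.

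Bone marrow-derived macrophages are grown by culturing marrow cells with the growth factor M-CSF, whose receptor is the product of *Csf1r*. The transcription factor PU.1, the product of *Spi1*, and the C/EBP proteins encoded by *Cebpa* and *Cebpb* bind near many macrophage genes, *Csf1r* and *Lyz2* among them. *Lyz2* encodes lysozyme M, an enzyme that cuts the cell wall of bacteria and is among the most abundant secreted products of macrophages. *Lyz1* encodes lysozyme P, best known from the Paneth cells of the intestine. *Adgre1* encodes F4/80, *Itgam* encodes the CD11b chain of complement receptor 3, and *Fcgr1* encodes the high-affinity receptor for IgG. The *Lyz2* locus is also the home of LysM-Cre, a widely used line in which the Cre recombinase was placed into *Lyz2* so that myeloid cells express it, and a locus that carries Cre no longer makes a full *Lyz2* transcript.

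There were 6 groups of 3 libraries. The Slc7a7-/- cells came from mice with a myeloid (LysM-Cre) deletion of *Slc7a7*, an exporter of cationic amino acids, and are called knockout below. The Slc7a7+/+ cells came from mice without the deletion and are called wild type. Mice were C57Bl/6J, 12 weeks old. Marrow was cultured for 7 days with M-CSF (50 ng/mL) or 30% L-cell medium, and 100000 cells were then held for 24 h with AcLDL (acetylated LDL, 50 µg/mL), with OxLDL (oxidized LDL, 100 µg/mL) or with vehicle (control). Both lipoproteins are taken up by scavenger receptors and turn macrophages into lipid-laden foam cells. Their doses differ, so each was compared with control only. The cells of each mouse received all 3 media, so treatments are paired within a mouse, while the genotypes rest on 3 mice each and replicate numbers name different mice in the genotypes. Whether the control mice carried LysM-Cre, and how many copies the knockout mice carried, was not given in the sources used here. The deletion and the Cre allele therefore cannot be told apart in any comparison of genotypes, and neither can the genotype and the library order, since the labels number all wild type libraries before the knockout ones.

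Libraries held 1043492 to 1768816 estimated counts, which limits the precision of the low genes. Levels are given as CPM, the count relative to the library total after TMM scaling. A level given as a percentage of control or of wild type is a ratio of group mean CPM, not an estimate of a fit. *Slc7a7* itself had 11.1 to 29.3 CPM in the wild type libraries and 2.2 to 10.9 CPM in the knockout libraries, with no overlap between the genotypes in any medium. With the counts of each mouse summed it fell to 28.8% of wild type (adjusted p = 0.0112, edgeR). In the fit by medium it passed with AcLDL (adjusted p = 0.000472, edgeR) and not with OxLDL (0.276) or in control medium. A missing call between the genotypes therefore does not show equal levels. No library repeated another: within groups, counts differed by 2.03 to 12.7 times the sampling variance. The 12 neutrophil markers summed to 39.4 to 268 CPM over the libraries, although *Ly6g* and *Retnlg* among them were at 0 in every library. The monocyte markers summed to 61.3 to 134 CPM. The lists of 8 dendritic cell, 8 lymphoid, 8 erythroid and mast cell and 6 stromal markers summed to at most 6.36, 3.15, 3.58 and 26.9 CPM. The highest stromal sums were in wild type mouse 1 with OxLDL (26.9 CPM) and wild type mouse 3 in control medium and with AcLDL (14.6 and 14.3 CPM).

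*Lyz2* and *Lyz1* lie next to each other on the minus strand of chromosome 10 (GRCm38), *Lyz2* at chr10:117277331-117282321 and *Lyz1* at chr10:117287797-117292868. Their coding sequences, 444 bases each without the stop codon, differ at 22 positions (95% identity), and the longest identical stretch is 118 bases. Of the 31-base words in the *Lyz1* transcript, 34.2% also occur in *Lyz2*, so a read can belong to either gene and a part of the small *Lyz1* count can depend on how the counting divided shared reads. The stretch of exon 1 that tells the genes apart best, coding positions 43 to 132, is shown with the 13 differing bases in capitals. It is at chr10:117282111-117282200 in *Lyz2* and at chr10:117292707-117292796 in *Lyz1*.
Lyz2: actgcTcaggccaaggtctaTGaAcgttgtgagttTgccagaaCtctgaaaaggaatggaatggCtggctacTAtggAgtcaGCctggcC
Lyz1: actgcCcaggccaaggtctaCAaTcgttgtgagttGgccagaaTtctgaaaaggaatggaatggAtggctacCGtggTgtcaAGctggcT

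The promoters of the lysozyme genes are shown because these neighbours stood on opposite sides of the wild type level in knockout cells. The letters are 201 bases of RefSeq promoter (GRCm38.p6, minus strand), chr10:117282322-117282522 for *Lyz2* and chr10:117292918-117293118 for *Lyz1*. Capitals mark AGGAAG, a core of the sites bound by PU.1 and other ETS factors, and TTGCNNAA, a C/EBP core, each searched on both strands.
Lyz2: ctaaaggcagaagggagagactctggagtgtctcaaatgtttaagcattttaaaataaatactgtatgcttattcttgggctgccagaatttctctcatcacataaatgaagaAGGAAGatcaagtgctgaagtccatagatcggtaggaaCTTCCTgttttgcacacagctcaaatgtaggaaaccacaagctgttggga
Lyz1: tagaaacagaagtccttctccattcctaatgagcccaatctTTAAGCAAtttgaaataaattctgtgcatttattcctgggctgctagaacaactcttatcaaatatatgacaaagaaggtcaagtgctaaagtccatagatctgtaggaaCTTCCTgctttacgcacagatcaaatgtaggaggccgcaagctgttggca
*Lyz2* has 2 matches to AGGAAG and none to TTGCNNAA, and *Lyz1* has 1 of each, with no overlap between the motifs. The counts were the same over the full 300 bases of each promoter. Among 32851 RefSeq promoters of 300 bases, 35.4% hold AGGAAG and 10.8% hold TTGCNNAA. The promoters of *Itgam* and *Fcgr1* hold 2 AGGAAG matches each and no TTGCNNAA, and those of *Cebpa* and *Cebpb* hold neither. These are matches of letters only.

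Per kilobase of the longest transcript, *Lyz2* was by far the most abundant of the 9 genes, with a median of 11732 CPM per kb over the 18 libraries (range 5719 to 23147). *Csf1r* (median 476, range 279 to 638 CPM per kb) and *Adgre1* (456, range 245 to 670) came next, and their ranges overlapped almost completely. When the union of exons was used as the length instead, *Adgre1* stood above *Csf1r*. *Itgam* followed with a median of 157 CPM per kb, then *Spi1* with 98.8, *Cebpb* with 62.4, *Cebpa* with 47.9, *Lyz1* with 29.1 and *Fcgr1* with 16.1. The ranges of neighbours in this order overlapped, except those of *Lyz2* and *Csf1r* and those of *Adgre1* and *Itgam* (highest library 170 CPM per kb).

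**Figure D1:**
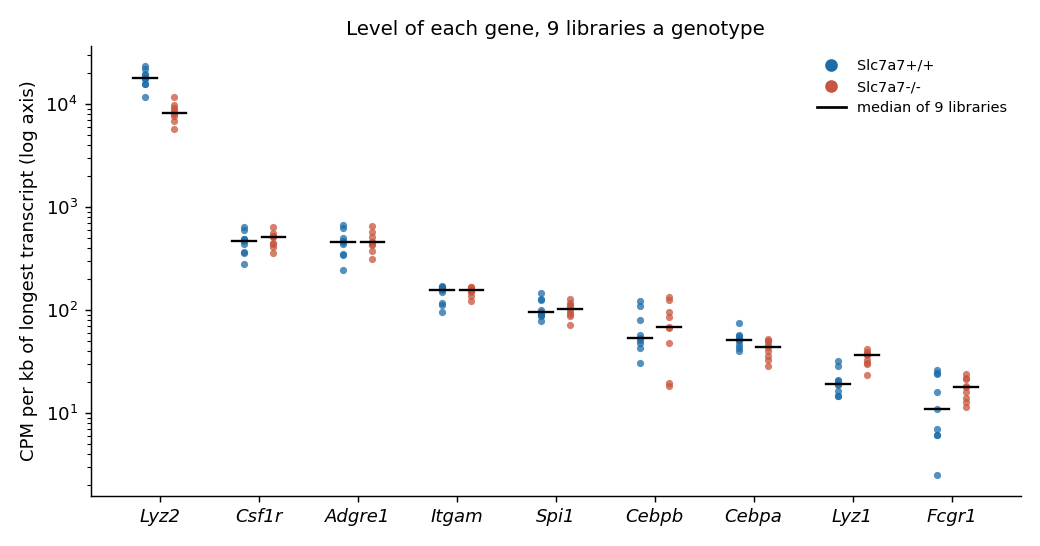
Level of each of the 9 genes in CPM per kb of the longest transcript (log axis), with 9 libraries for each genotype as points and their median as a bar. Lyz2 lies far above the other genes, and all Slc7a7-/- points lie below the Slc7a7+/+ median for Lyz2 and above it for Lyz1.

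*Lyz2* was lower in knockout than in wild type macrophages in every medium, and the libraries of the genotypes did not overlap. In control medium, wild type mice 1, 2 and 3 had 20497, 23637 and 28591 CPM and knockout mice 15337, 11567 and 12798 CPM. With AcLDL the wild type values were 25746, 20339 and 30462 CPM and the knockout values 11952, 10096 and 10665 CPM. With OxLDL they were 22739, 15543 and 25161 CPM against 10478, 7526 and 8908 CPM. The lowest wild type library, mouse 2 with OxLDL, still stood just above the highest knockout library, mouse 1 in control medium.

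On average, knockout cells held 54.6% of the wild type level in control medium (13234 ± 1923 against 24242 ± 4081 CPM, SD, n = 3), 42.7% with AcLDL (10904 ± 951 against 25516 ± 5065) and 42.4% with OxLDL (8971 ± 1477 against 21148 ± 5003). The difference passed the test with AcLDL (adjusted p = 0.0149, edgeR quasi-likelihood test) and with OxLDL (adjusted p = 0.0263). In control medium it did not pass (log2 fold change -0.87, SE 0.20, adjusted p = 0.562), although DESeq2 called it (adjusted p = 0.00673). *Lyz2* was the only member called between the genotypes, 0 of 9 in control medium against 0.00814% of all genes, 1 of 9 with AcLDL against 0.0163% and 1 of 9 with OxLDL against 0.00814%. With the counts of each mouse summed, which treats the mouse as the unit, *Lyz2* held 47.3% of the wild type level (log2 fold change -1.08, SE 0.21, 95% interval -1.54 to -0.61) and 0 of 9 members passed, against 0.00789% of all genes. The adjusted p of *Lyz2* was then 0.98. DESeq2 gave 5.56e-09 on the same sums. Limma with an estimated mouse correlation of 0.176 gave an adjusted p of 1.18e-06 over the 18 libraries. That correlation is 1 value for all genes and does not make the mouse the unit. Wild type mouse 3 and knockout mouse 1 had the most *Lyz2* of their genotypes in every medium, so this p may be too small.

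Leaving out 1 library moved the log2 fold change between -1.36 and -1.07 with AcLDL and between -1.40 and -1.08 with OxLDL. The call was lost with AcLDL without wild type mouse 3 (adjusted p = 0.179) or without knockout mouse 1 (0.069), 2 (0.300) or 3 (0.161), and with OxLDL without wild type mouse 1 (0.0862) or 3 (0.352) or knockout mouse 2 (0.747) or 3 (0.455), all by edgeR. Without the 3 libraries of knockout mouse 3 it was lost in both media (adjusted p = 0.396 and 0.999), with log2 fold changes of -1.20 and -1.23. Exact permutation of 3 against 3 gave p = 0.10, two-sided, in each medium, the smallest p this design allows.

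*Lyz1* stood the other way: it was higher in knockout cells in each medium, again with no overlap. In control medium the wild type mice had 18.6, 24.4 and 40.8 CPM (20 to 56 counts) and the knockout mice 46.4, 47.0 and 53.5 CPM (76 to 83 counts). With AcLDL the values were 23.7, 25.9 and 36.0 CPM against 41.8, 38.9 and 49.3 CPM, and with OxLDL 20.6, 18.5 and 26.7 CPM against 47.1, 29.4 and 37.6 CPM. Wild type mouse 3 had the most *Lyz1* of its genotype in every medium. None of these differences passed the test over all genes (log2 fold changes 0.79, 0.58 and 0.78, edgeR adjusted p of 1, 0.99 and 0.933). Over summed mice the log2 fold change was 0.73 (SE 0.18, adjusted p = 0.98, edgeR), and exact permutation gave p = 0.10. With no filter on low counts it passed over summed mice (0.74, adjusted p = 0.00272, edgeR).

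*Lyz1* was a small share of the lysozyme counts in both genotypes and a larger one in knockout cells: 0.112% ± 0.027 in wild type control cells against 0.374% ± 0.063 in knockout control cells (SD, n = 3), 0.112% ± 0.018 against 0.397% ± 0.057 with AcLDL and 0.105% ± 0.014 against 0.419% ± 0.029 with OxLDL. The highest wild type share was 0.143% and the lowest knockout share 0.302%. Summing the counts of the genes before the fit left *Lyz2* with log2 fold changes of -1.22 and -1.23 with AcLDL and OxLDL, beside -1.23 and -1.24 with the genes counted apart. With so small a share of *Lyz1* in the sum, these values could hardly have moved. Of all 12290 genes, 14 separated the genotypes without overlap in the same direction in all 3 media (0.114%). *Lyz2*, *Slc7a7* and *Gpnmb*, a gene of lipid-loaded macrophages, were the 3 lower genes and *Lyz1* was among the 11 higher ones.

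**Figure D2:**
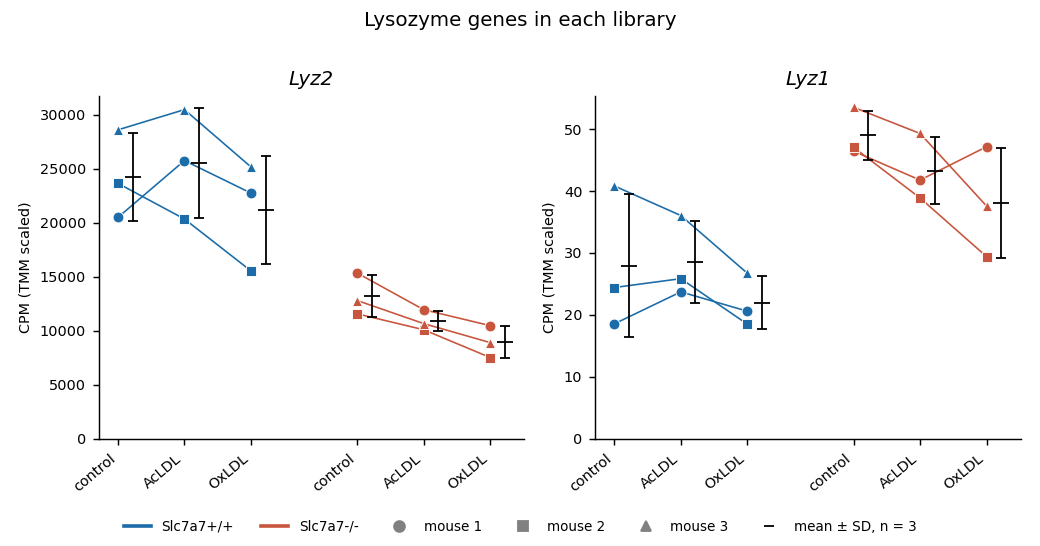
CPM of Lyz2 and Lyz1 in each library, by medium and genotype. Lines join the libraries of a mouse and black bars give the mean ± SD (n = 3). The Slc7a7-/- libraries lie below the Slc7a7+/+ libraries for Lyz2 and above them for Lyz1 in each medium, with no overlap.

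Neutrophils also express *Lyz2*, and the markers of other myeloid cells were therefore set beside it. The sum of the 12 neutrophil markers, 8 of which were tested, was 101 to 139 CPM in wild type and 68.7 to 160 CPM in knockout control libraries. With AcLDL it was 99.3 to 235 against 39.4 to 83.5 CPM, and with OxLDL 165 to 268 against 86.2 to 139 CPM, so this sum did separate the genotypes in both LDL media. The markers *S100a9*, *Ngp*, *Csf3r*, *Ltf* and *S100a8* made up most of it. Of these, *Csf3r* was higher in knockout cells with OxLDL (23.3 to 26.1 against 16.1 to 20.9 CPM in wild type). *S100a9*, *Ngp*, *Ltf* and *S100a8* had lower means in knockout than in wild type cells with both LDL forms. *Ly6g* and *Retnlg* were at 0 throughout and *Elane* and *Cxcr2* had at most 3 counts. The 5 monocyte markers summed to 81.6 to 112, 91.1 to 134 and 69.0 to 94.4 CPM in wild type cells (control, AcLDL, OxLDL) and to 61.3 to 83.2, 70.5 to 121 and 63.6 to 82.5 CPM in knockout cells, nearly all of it *Ccr2*. The macrophage markers that are not members, *Cd68*, *Cd14* and *Mertk*, summed to 875 to 1170 CPM in wild type and 1095 to 1196 CPM in knockout control cells, 843 to 928 against 930 to 950 CPM with AcLDL, and 842 to 934 against 784 to 919 CPM with OxLDL. With AcLDL this sum also separated the genotypes, by a narrow margin. In every medium the mean of *Cd14* was higher in knockout cells and those of *Cd68* and *Mertk* were lower. The part of these cells in the *Lyz2* difference was not tested. In bulk RNA, fewer cells of a type and less RNA per cell cannot be told apart.

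Other secreted antimicrobial genes had no call between the genotypes. Of the list of 16 such genes, 9 were tested and *Lyz2* alone passed, with AcLDL and with OxLDL. The 9 include the members *Lyz2* and *Lyz1*. The median log2 fold change of the 9 was -0.15 in control medium, -0.69 with AcLDL and -0.95 with OxLDL. The medians of all genes were 0.00, 0.00 and -0.01. *Ltf* (lactoferrin) had 7.34 against 21.4 CPM with AcLDL (adjusted p = 0.507, edgeR) and *Chil3*, a chitinase-like protein of activated macrophages, 11.7 against 30.5 CPM with OxLDL (adjusted p = 0.933). *Camp*, the cathelicidin gene, was at no more than 2.83 CPM in any group.

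The genes near the lysozymes were examined in the same way. Within 500 kb of *Lyz2*, 31 other genes are annotated and 8 were tested. None of the 8 passed between the genotypes in any medium. *Cpsf6*, an mRNA processing factor, had 109 against 79.6 CPM in control (log2 fold change 0.45, SE 0.14, adjusted p of 1 by edgeR) and 111 against 80.4 CPM with OxLDL. With AcLDL the log2 fold change was 0.18 (SE 0.14), and the groups overlapped. *Mdm2*, the p53 inhibitor, had 256 against 200.1 CPM in control (log2 fold change 0.36, SE 0.15). The other 6 were *Rab3ip*, *Cct2*, *Frs2*, *Yeats4*, *Slc35e3* and *Nup107*, and their log2 fold changes lay between -0.35 and 0.15.

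With OxLDL, *Lyz2* fell in knockout cells when the mouse was taken as a block. Within the knockout mice, the changes of *Lyz2* from the control library of the same mouse were -0.55, -0.62 and -0.52 on the log2 scale. In the wild type mice the changes were 0.15, -0.60 and -0.18. The fit with the mouse as a block called the fall in knockout cells, to 67.8% of control (log2 fold change -0.56, SE 0.10, adjusted p = 0.000259), and the fit without it did not (adjusted p = 0.17). In wild type cells the level was 87.2% of control (adjusted p = 0.326 with the block). Without wild type mouse 1 the blocked fit called it there too (log2 fold change -0.40, adjusted p = 0.0237). The difference between these responses was -0.35 (SE 0.15), which did not pass over all genes (edgeR adjusted p of 1 with the block), so the responses are not shown to differ. With AcLDL, *Lyz2* was at 105% of control in wild type and 82.4% in knockout cells, and neither passed. *Lyz1* had no call with either LDL (102% and 88.4% of control with AcLDL, 78.6% and 77.7% with OxLDL).

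*Spi1*, the gene of PU.1, fell with OxLDL in both genotypes. In wild type mice 1, 2 and 3 it went from 253, 302 and 262 CPM in control to 177, 160 and 185 CPM with OxLDL, and in knockout mice from 228, 239 and 260 to 180, 146 and 188 CPM. Every OxLDL library was below every control library. The log2 fold change was -0.65 (SE 0.12, adjusted p = 0.00409, edgeR) in wild type cells, 63.9% of control, and -0.50 (SE 0.12, adjusted p = 0.0274) in knockout cells, 70.8% of control.

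*Spi1* was the only member called in these comparisons, 1 of 9 in wild type cells against 1.34% of all genes, and 1 of 9 in knockout cells against 2.32%. With the mouse as a block it passed in both (adjusted p = 2.97e-05 and 0.00079). The wild type call held without any single library. It was lost when only the libraries compared were fitted (adjusted p = 0.156, edgeR). The knockout call was lost without control mouse 1 (adjusted p = 0.0606), 2 (0.0842) or 3 (0.151) or OxLDL mouse 1 (0.0743) or 2 (0.203), with library size scaling (0.0565), and without all libraries of knockout mouse 3 (0.249, or 0.0136 with the block).

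With AcLDL, *Spi1* was 182, 197 and 205 CPM in wild type and 221, 195 and 208 CPM in knockout cells, below the control of the same mouse in all 6 mice. The wild type change, to 71.5% of control (log2 fold change -0.48, SE 0.12), did not pass without the block (adjusted p = 0.0927) and passed with it (0.00363, edgeR). The knockout change, to 85.9%, did not pass in either fit (0.744 and 0.321). Without the block, AcLDL gave 0 of 9 members in wild type cells, against 0.472% of all genes, and 0 of 9 in knockout cells, against 0.521%. *Spi1* had no call between the genotypes and its knockout means were 88.9%, 107% and 98.5% of wild type in control medium, with AcLDL and with OxLDL.

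*Cebpb* encodes C/EBPβ, which is induced by inflammatory signals, and varied most between mice of the 3 factor genes. In control medium it was 166, 86.5 and 183 CPM in wild type and 187, 201 and 71.6 CPM in knockout mice. With OxLDL the values were 72.6, 46.3 and 65.2 CPM in wild type and 143, 101 and 29.5 CPM in knockout mice, lower than the control of the same mouse in all 6. Knockout mouse 3 had the lowest *Cebpb* of its genotype in every medium. Mean *Cebpb* fell to 42.2% of control in wild type (blocked fit: log2 fold change -1.24, SE 0.20, adjusted p = 3.84e-05) and to 59.7% in knockout cells (-0.81, SE 0.18, adjusted p = 0.00311). Without the block neither passed (adjusted p = 0.29 and 0.514). With AcLDL it was 81.6, 120 and 76.8 CPM in wild type and 129, 104 and 27.8 CPM in knockout mice. Wild type mouse 2 alone was above its control. The blocked fit called the fall in knockout (57.0% of control, adjusted p = 0.00347) and not in wild type cells (64.0%, adjusted p = 0.0999). Without knockout mouse 3 the knockout call was lost (log2 fold change -0.73, adjusted p = 0.0772, edgeR with the block). Without the block, leaving out 1 library moved it between -1.21 and -0.39, the latter without knockout mouse 3 with AcLDL. *Cebpb* overlaps *Tmem189* on the opposite strand, which had 89 to 198 counts, and the strand setting of the counting was not given in the sources used here.

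*Cebpa*, the gene of the factor that commits progenitors to the myeloid lineage, had no call in any comparison. In control medium wild type mice had 106, 112 and 152 CPM and knockout mice 107, 116 and 87.0 CPM. Its widest difference between the genotypes was with AcLDL, 156 ± 36 against 110 ± 30 CPM (SD, n = 3, log2 fold change -0.51, adjusted p = 0.99 by edgeR), and the groups overlapped. Its AcLDL and OxLDL means were 106% to 127% of control.

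**Figure D3:**
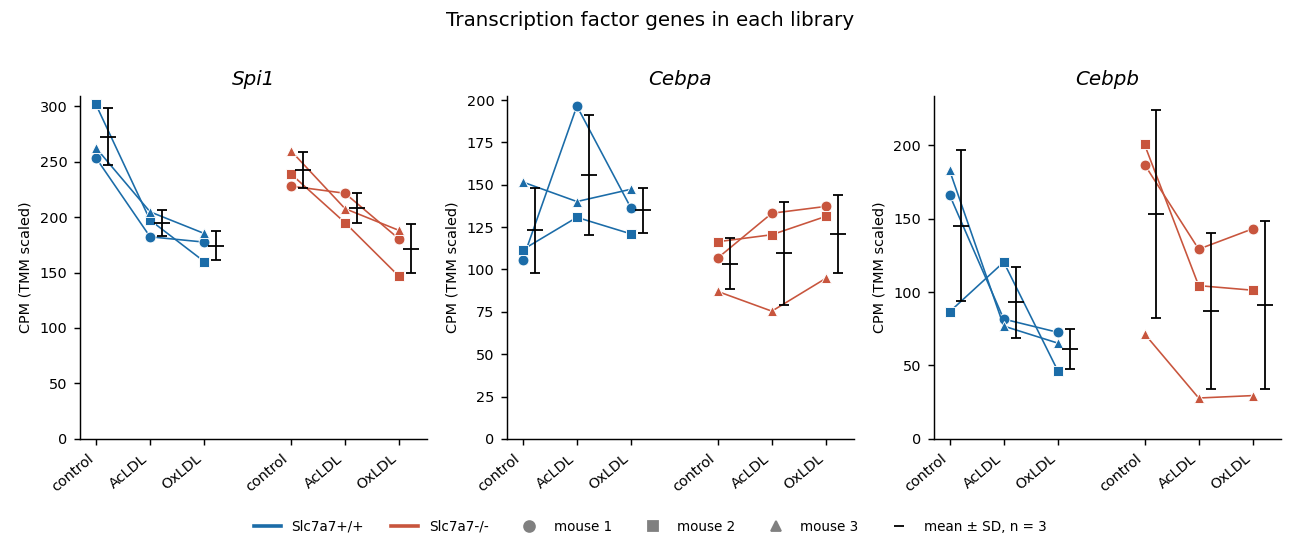
CPM of Spi1, Cebpa and Cebpb in each library, by medium and genotype. Lines join the libraries of a mouse and black bars give the mean ± SD (n = 3). Spi1 is below the control with both LDL forms in every mouse, while Cebpb spreads widely between mice and knockout mouse 3 runs lowest in its genotype.

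The other myeloid transcription factors were examined as a list. Of a list of 30 such genes, the 3 members included, 28 were tested. Without the block, OxLDL called 2 lower in wild type cells, *Spi1* and *Nr1h3*, and in knockout cells the same 2 lower and 1 gene higher. *Nr1h3*, which encodes the oxysterol receptor LXRα, went from 45.3 to 25.0 CPM in wild type (log2 fold change -0.88, adjusted p = 0.0217, edgeR) and from 44.2 to 24.2 CPM in knockout cells (-0.88, adjusted p = 0.0138). The median log2 fold change of the 28 with OxLDL was -0.02 in wild type and -0.09 in knockout cells, against 0.01 and 0.00 over all genes. With the block, 2 of 28 were higher and 4 lower in wild type cells with OxLDL, and 2 higher and 6 lower in knockout cells. With AcLDL 2 were higher and 1 lower in wild type and 1 higher and 2 lower in knockout cells in that fit. No gene of the list passed between the genotypes.

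*Csf1r*, the M-CSF receptor, was lower with OxLDL than in control medium in all 6 mice. Wild type mice went from 1741, 2835 and 2986 to 1312, 2322 and 2044 CPM and knockout mice from 2477, 2653 and 3000.2 to 1692, 1944 and 2082 CPM. The spread between wild type mice was wide because mouse 1 was low in every medium, and the wild type groups overlapped. Mean *Csf1r* fell to 75.1% of control in wild type (blocked fit: log2 fold change -0.41, SE 0.09, adjusted p = 0.00431) and to 70.3% in knockout cells (-0.51, SE 0.09, adjusted p = 0.000247). It did not pass without the block (adjusted p = 0.501 and 0.26). With AcLDL it was at 81.3% and 85.7% of control, with no call in either fit.

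*Adgre1*, the F4/80 gene, was also lower with OxLDL in all 6 mice. Wild type mice went from 1123, 2170 and 2023 CPM in control to 795, 1481 and 1405 CPM with OxLDL, and knockout mice from 1642, 1871 and 2099 to 1019, 1422 and 1227 CPM. The mean fell to 69.2% in wild type (blocked fit: log2 fold change -0.53, SE 0.10, adjusted p = 0.00046) and to 65.3% in knockout cells (-0.61, SE 0.10, adjusted p = 3.16e-05). Without the block it did not pass (adjusted p = 0.405 and 0.202). With AcLDL *Adgre1* was 1111, 1523 and 1607 CPM in wild type and 1472, 1386 and 1497 CPM in knockout mice. The blocked fit called the knockout change (77.6% of control, adjusted p = 0.0373) and not the wild type one (79.8%, adjusted p = 0.154). Without knockout mouse 3 the knockout call was lost (log2 fold change -0.28, adjusted p = 0.518), and without wild type mouse 1 the wild type change was called (-0.42, adjusted p = 0.0173, edgeR with the block). Over the 18 libraries the log2 CPM of *Adgre1* and *Csf1r* had a Pearson r of 0.965, a description over libraries that share mice, media and wild type mouse 1.

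With the mouse as a block, the members called with OxLDL were 4 of 9 in wild type cells (*Spi1*, *Cebpb*, *Csf1r* and *Adgre1*), against 4.39% of all genes, and 5 of 9 in knockout cells (the same 4 and *Lyz2*), against 7.18%. With AcLDL they were 1 of 9 in wild type cells (*Spi1*), against 2.16%, and 2 of 9 in knockout cells (*Cebpb* and *Adgre1*), against 2.5%. All of these were lower with LDL, and so were most of all genes called in this fit. With OxLDL 351 of 539 were lower in wild type and 592 of 882 in knockout cells. With AcLDL these were 176 of 265 and 209 of 307. The median log2 fold change of the 9 members with OxLDL was -0.36 in wild type and -0.50 in knockout cells, beside 0.01 in both over all genes in this fit. The AcLDL and OxLDL comparisons of a genotype share their control libraries.

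*Itgam*, a receptor for complement and fibrinogen, had no call. Wild type mice had 552, 784 and 795 CPM in control and 449, 780 and 709 CPM with OxLDL, and knockout mice 710, 750 and 779 against 579, 733 and 751 CPM. Its group means lay between 90.9% and 95.5% of control with either LDL, and its knockout means were 105% to 106% of wild type. The 95% interval of its OxLDL change in the blocked fit was -0.34 to 0.05 in wild type and -0.31 to 0.07 in knockout cells. Its transcripts share 68.1% of their 31-base words with the readthrough gene *Gm49368*, which was counted at 0 to 12.

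*Fcgr1*, the lowest member per kilobase of transcript, varied widely between wild type mice. In control medium wild type mice had 6.5, 62.8 and 41.5 CPM (7 to 90 counts) and knockout mice 29.5, 33.4 and 62.5 CPM. With AcLDL the values were 16.1, 68.0 and 28.6 against 55.2, 47.2 and 56.8 CPM, and with OxLDL 16.1, 64.2 and 18.3 against 36.2, 46.5 and 41.6 CPM. No comparison passed, and the 95% interval of the genotype difference in control medium, -0.91 to 1.15 on the log2 scale, was the widest of the 9 members.

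**Figure D4:**
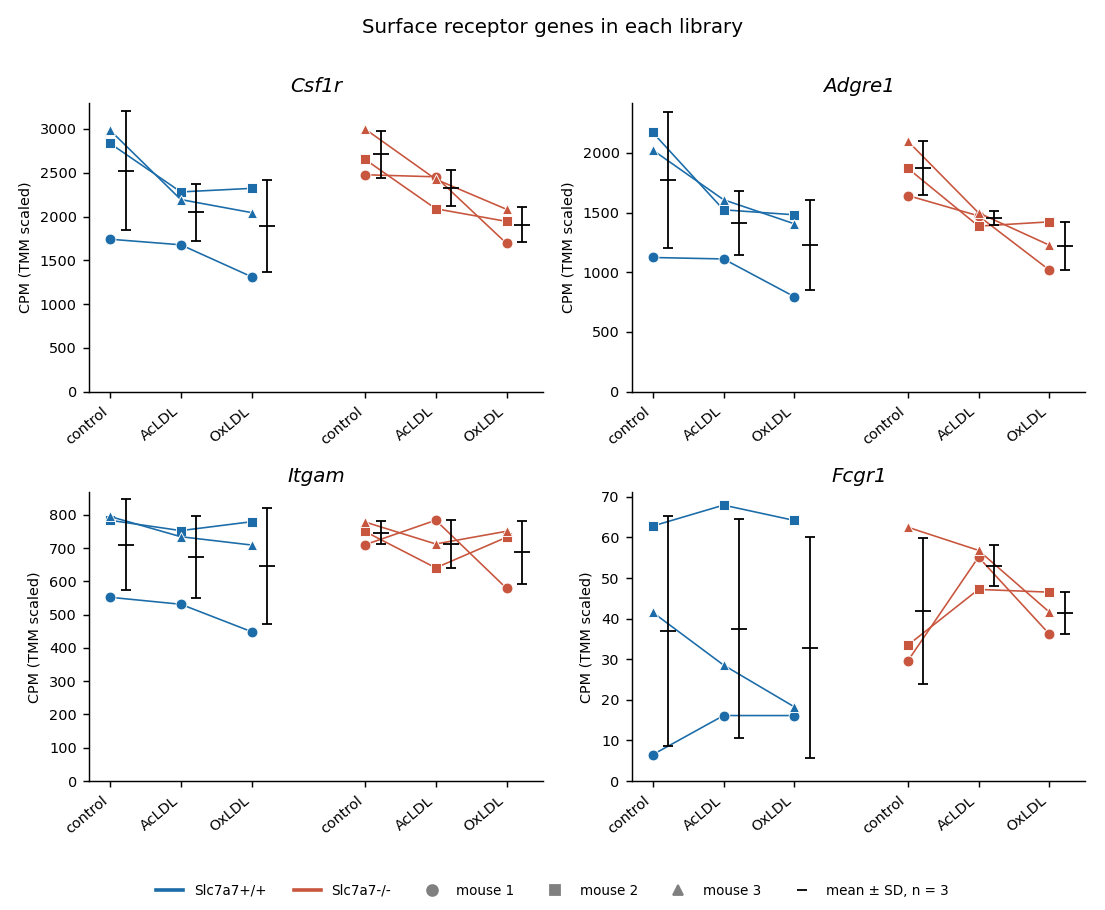
CPM of Csf1r, Adgre1, Itgam and Fcgr1 in each library, by medium and genotype. Lines join the libraries of a mouse and black bars give the mean ± SD (n = 3). Wild type mouse 1 is the lowest of its genotype for all 4 genes in every medium, and Csf1r and Adgre1 are lower with OxLDL than in control in each mouse.

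Wild type mouse 1 had the lowest *Csf1r*, *Adgre1*, *Itgam* and *Fcgr1* of the wild type mice in every medium. Its libraries were the 3 smallest of all (1043492 to 1131744 counts). Without it, the mouse-blocked fit called 3 members instead of 1 with AcLDL and 5 instead of 4 with OxLDL in wild type cells. Calls over all genes rose too, to 332 instead of 265 with AcLDL and to 597 instead of 539 with OxLDL. The part of depth in these levels was not tested.

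Several genes listed for signalling of the M-CSF receptor were lower with OxLDL. Of 26 genes of CSF1 receptor signalling 25 were tested, and OxLDL lowered 5 in wild type cells, *Src*, *Fgr*, *Pik3r5* and *Ptpn6* among them, and 4 in knockout cells, *Fgr*, *Pik3r5* and *Ptpn6* among them, with none higher. The Src family kinase gene *Fgr* went from 63.9 to 23.2 CPM in wild type (log2 fold change -1.46, SE 0.22, adjusted p = 0.000259, edgeR) and from 64.5 to 19.5 CPM in knockout cells (-1.76, SE 0.22, adjusted p = 2.24e-05). *Pik3r5*, a regulatory subunit of PI3K gamma, went from 234 to 149 CPM and from 281 to 164 CPM, and *Ptpn6*, the phosphatase SHP-1, from 317 to 194 CPM and from 323 to 197 CPM. *Src* fell by 1.84 on the log2 scale, to 3.67 CPM, in wild type cells (adjusted p = 0.0345). With AcLDL 3 genes of the list fell in knockout cells, *Fgr* and *Pik3r5* among them (adjusted p = 0.0285 and 0.0121), and no gene of the list passed in wild type cells. With the mouse as a block, OxLDL called 8 of 25 in wild type and 9 in knockout cells, against 4.39% and 7.18% of all genes. Both counts include the member *Csf1r*, and of the 24 genes that are not members 7 and 8 were called. AcLDL called 5 and 6, against 2.16% and 2.5%. All were lower. Of all genes called with OxLDL in this fit, 351 of 539 in wild type and 592 of 882 in knockout cells were also lower. Without the block these were 131 of 165 and 204 of 285, and the shares called 1.34% and 2.32%. The median log2 fold change of the 25 with OxLDL was -0.22 in wild type and -0.20 in knockout cells.

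Of the relatives of the other receptors, 1 integrin and 1 adhesion receptor passed without the block. *Itga5*, the fibronectin receptor chain, fell with OxLDL from 253 to 130 CPM in wild type (log2 fold change -0.95, SE 0.14, adjusted p = 0.000193, edgeR) and from 330 to 159 CPM in knockout cells (-1.05, SE 0.14, adjusted p = 2.97e-05), and with AcLDL in knockout cells to 217 CPM (adjusted p = 0.033). The other 13 of 14 integrin genes tested, *Itgam* among them, did not pass without the block. With the mouse as a block, OxLDL called 3 integrin genes lower in wild type and 5 lower in knockout cells, and AcLDL 2 lower in wild type and 1 higher and 1 lower in knockout cells, *Itgam* in none of these. *Adgre4*, the paralogue of *Adgre1*, went from 33.9 to 7.84 CPM with OxLDL in knockout cells (-2.14, SE 0.46, adjusted p = 0.00857) and from 36.0 to 12.9 CPM in wild type cells (-1.47, adjusted p = 0.104). With the block, *Adgre1* and *Adgre4* were the 2 of 6 adhesion receptor genes called with OxLDL in each genotype, both lower. None of the 6 genes tested from the Fc gamma receptor list, which also holds *Fcer1g* and *Fcgrt*, passed without the block. *Fcgr3* came closest, with OxLDL in knockout cells (edgeR adjusted p = 0.091), followed by *Fcer1g* in the same comparison (adjusted p = 0.337) and *Fcgrt* with AcLDL in knockout cells (adjusted p = 0.586). With the block, *Fcgr3* was called higher and *Fcer1g* lower with OxLDL in both genotypes, and *Fcgr3* higher with AcLDL in knockout cells.

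Macrophage surface and lysosome genes changed in both directions with OxLDL. Of 29 tested, none a member, without the block 1 was higher and 2 lower in wild type cells and 2 were higher and 1 lower in knockout cells. *Cd36*, the receptor for oxidized LDL, rose from 394 to 1194 CPM in wild type (log2 fold change 1.60, SE 0.20, adjusted p = 2.06e-05, edgeR) and from 496 to 1519.9 CPM in knockout cells (1.62, adjusted p = 1.33e-05). *Msr1*, a scavenger receptor for AcLDL, rose from 308 to 522 CPM in knockout cells (0.76, adjusted p = 0.00772). *Cx3cr1*, the fractalkine receptor, fell from 139 to 30.4 CPM in wild type (-2.22, adjusted p = 5.44e-07) and from 148 to 38.8 CPM in knockout cells (-1.97, adjusted p = 1.45e-06). *Aif1*, which encodes the macrophage protein IBA1, fell from 28.4 CPM by 1.23 on the log2 scale in wild type cells (adjusted p = 0.0228). None of the 29 passed with AcLDL without the block, or between the genotypes. With the mouse as a block, 7 were higher and 4 lower in wild type and 5 higher and 5 lower in knockout cells with OxLDL. With AcLDL 3 were higher and 2 lower in wild type and 2 higher and 2 lower in knockout cells in that fit.

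**Figure D5:**
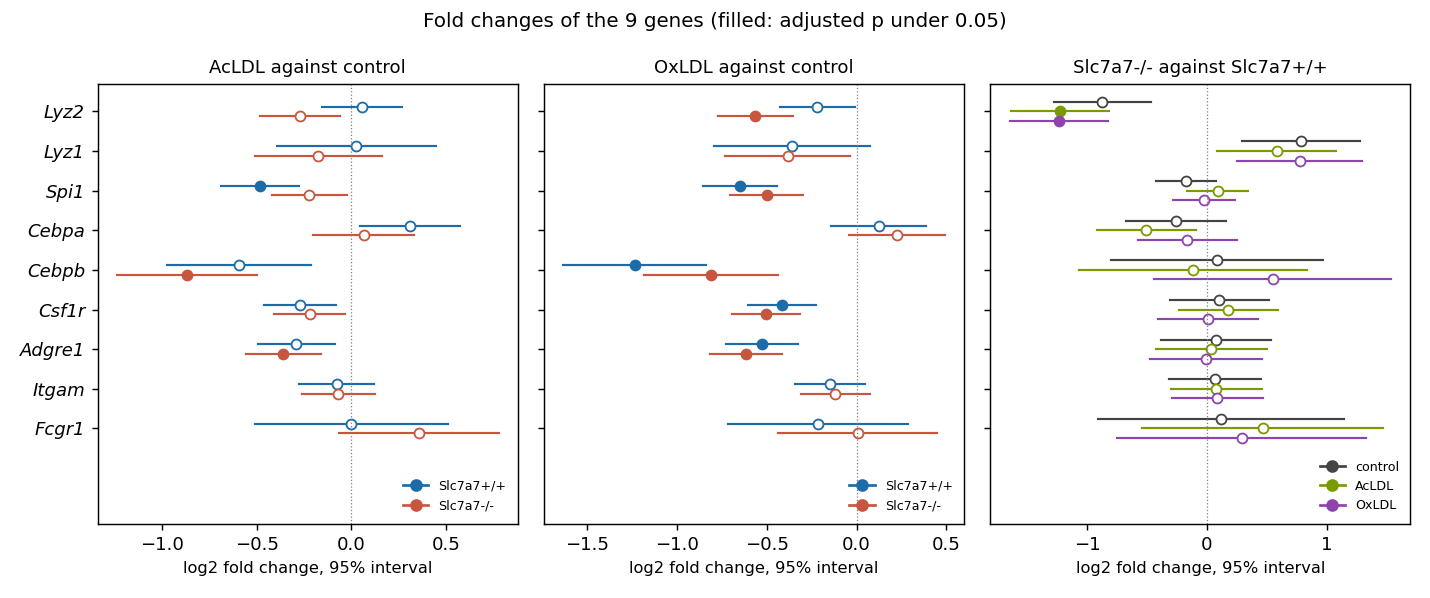
Log2 fold changes of the 9 genes with 95% intervals. The left and middle panels are from the fit with the mouse as a block and the right panel from the fit of all 18 libraries without a block, and filled points passed an adjusted p of 0.05. With OxLDL, Spi1, Cebpb, Csf1r and Adgre1 are filled below 0 in both genotypes, and between the genotypes only Lyz2 is filled.

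The responses of the members to LDL were not shown to differ between the genotypes. The test of the difference called 0 of 9 members for AcLDL and 0 of 9 for OxLDL, and 0% of all genes in either case, with 327 and 338 genes at a raw p under 0.05 and 0 calls by edgeR. DESeq2 called no member either, and neither did the fit with the mouse as a block. The 95% intervals without the block were -0.92 to 0.22 (AcLDL) and -0.94 to 0.21 (OxLDL) for *Lyz2*, -0.09 to 0.62 and -0.21 to 0.51 for *Spi1*, and -0.51 to 0.66 and -0.68 to 0.49 for *Csf1r*.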

How the data were processed

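Total RNA of 18 libraries was sequenced from a stranded SMARTer Pico kit. Reads were cleaned by Trim Galore, placed on mm10 by STAR and counted per gene by Salmon (Ensembl 93). The authors deposited estimated counts per gene, which need not be whole. The strand setting of the counting was not given in the sources used here.

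Here the estimated counts were rounded. Genes were kept by filterByExpr (minimum count 2, minimum total 10), scaled by TMM and fitted over the 6 groups with edgeR 4.0.16 (quasi-likelihood test, R 4.3.3, 12290 genes). Benjamini-Hochberg adjustment ran over every gene in the fit, and an adjusted p under 0.05 was called. An SE is the absolute log2 fold change divided by the square root of F. The fit was tested on simulated data. Depth was 1043492 to 1768816 counts per library. Genotypes were also compared with the counts of each mouse summed (12673 genes).

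The 3 media of a mouse are paired by the animal named in the labels. Same-mouse deviations from the group means correlated at 0.055 to 0.293, above 0.1 in 14 of 18 pairs. A fit with the mouse as a block was therefore run for LDL comparisons. Alternatives were DESeq2 1.42.0, library size scaling, other filters, fewer libraries, summed lysozyme counts and limma 3.58.1 with an estimated mouse correlation.

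The members and gene lists were chosen with earlier results of these data known. Named genes were the 9 members, *Slc7a7*, those of each list that passed in at least 1 comparison of the fit without a block, or otherwise the 3 with the smallest p, and the 5 genes most like *Lyz2* and *Csf1r*. *Gpnmb*, *Cpsf6*, *Mdm2*, the other neighbours of *Lyz2*, *Ltf*, *Chil3* and *Camp* were named after their values were seen. Some genes that the rule names are not reported here. Positions are from GENCODE M21 (GRCm38).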

Additional observations from a re-analysis of the deposited data

How the results depend on the processing

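Alternatives were run for most log2 fold changes of *Lyz2*, *Spi1*, *Cebpb*, *Csf1r* and *Adgre1* given in the report and for that of *Lyz1* over summed mice. None of these reversed. The *Lyz1* values of single media were not followed, and the differences between responses only as counts of members called. Of the other 3 members, compared only between the fits with and without the mouse as a block, *Fcgr1* changed sign near 0 with AcLDL in wild type and with OxLDL in knockout cells. Between the genotypes in control medium, *Lyz2* passed with DESeq2 (-0.88), with no filter (-0.86, adjusted p = 0.00116) and with the replicate number as a block (-0.88, adjusted p = 0.0171), which gave 1 member called in place of 0. Those numbers name different mice in the genotypes and pair nothing there. With OxLDL the *Lyz2* call was lost when only the libraries compared were fitted (-1.24, adjusted p = 0.355), with 0 members called. Without knockout mouse 3, chosen after seeing the data, it was lost with AcLDL (-1.20) and OxLDL (-1.23), with 0 members called in each. Over summed mice *Lyz2* passed with DESeq2 (-1.08) and with no filter (-1.07, adjusted p = 8.52e-06, edgeR), which called 1 and 2 members. Limma with an estimated mouse correlation also called it (-1.10), with 1 member called. That fit ran over the 18 libraries and did not take the mouse as the unit. The second member with no filter was *Lyz1* (0.74, adjusted p = 0.00272).

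Leaving out 1 library gave *Lyz2* log2 fold changes of -1.01 to -0.74 in control medium, -1.36 to -1.07 with AcLDL and -1.40 to -1.08 with OxLDL, and leaving out 1 mouse gave -1.20 to -0.94 over summed mice. Members called then ranged from 0 to 1 between the genotypes with AcLDL and with OxLDL, and from 0 to 1 for OxLDL against control in knockout cells. The counts were 1 in each case for OxLDL in wild type cells and 0 in each case for the other comparisons.

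For AcLDL against control in wild type cells, 1 member was called with DESeq2, with no filter and with the mouse as a block (also without knockout mouse 3), and 3 with the block without wild type mouse 1. In knockout cells 1 was called with no filter and 2 with the block, with or without wild type mouse 1, and 0 with the block without knockout mouse 3. For OxLDL in wild type cells, 2 were called with no filter or without knockout mouse 3, 0 with only the libraries compared, 4 with the block (also without knockout mouse 3) and 5 with the block without wild type mouse 1. In knockout cells 0 were called with library size scaling or without knockout mouse 3, 3 with no filter or without wild type mouse 1, 4 with only the libraries compared and 5 with the block, also without either mouse. The cause of these changes was not tested.

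Counts over all genes moved by over 1.5 times as well. Between the genotypes they went from 1 to 28 in control medium, from 2 to 45 with AcLDL, from 1 to 34 with OxLDL and from 1 to 73 over summed mice with no filter. For OxLDL against control they went from 165 to 539 in wild type and from 285 to 882 in knockout cells with the block, and in knockout cells to 85 without knockout mouse 3 and 553 without wild type mouse 1. With no filter they were 337 in wild type and 491 in knockout cells, and with only the libraries compared 62 and 751. For AcLDL they went from 58 to 265 in wild type and from 64 to 307 in knockout cells with the block. With no filter these were 176 and 188. At 1043492 to 1768816 counts per library, *Lyz1* and *Fcgr1* rest on 20 to 85 and 7 to 104 counts, and limits from counting cover counting error only.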

Other observations

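The genes whose log2 CPM followed *Lyz2* most closely over the 18 libraries, among 6745 genes of at least 20 CPM, were *Ms4a6c* (Pearson r = 0.895), *Serp1* (0.865), *Sh3glb1* (0.831), *Napsa* (0.819) and *Hsd17b11* (0.802). For *Csf1r* they were *Cybb* (0.970), *Samhd1* (0.957), *Sirpa* (0.953), *Ptprj* (0.950) and *Ptprc* (0.947). *Itgam* had r = 0.886 with *Csf1r* and 0.853 with *Adgre1*. These are descriptions over libraries that share 6 mice, 3 media and depth, with wild type mouse 1 low in the receptor genes.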
